A study of Homo sapiens with 4 samples.

Results

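Long intergenic noncoding RNA genes were examined in RNA sequencing libraries of 2 leukaemia cell lines, TF1-BA, which is sensitive to imatinib, and TF1-BAR, which is resistant. The members are the genes of the deposited expression table named LINC followed by digits alone, and by rule those on chromosomes 10 and 20 were left out. Of 855 genes with such a name, 45 lay on these chromosomes, which gave 810 members among the 32673 genes of the table. TF1 is a human erythroleukaemia cell line that depends on GM-CSF. TF1-BA cells were made from it by infection with a retrovirus carrying BCR-ABL, the fusion kinase of chronic myeloid leukaemia, and TF1-BAR cells arose from TF1-BA cells during months of continuous exposure to imatinib, the inhibitor of that kinase. Both lines therefore carry BCR-ABL. Each line was measured in 2 libraries, named here replicates 1 and 2. By the labels, the medium held 10% foetal bovine serum and 2 ng/ml GM-CSF, with 2 µM imatinib for the resistant cells, while the study's methods give a higher dose of GM-CSF. Whether the drug was present at harvest is not given, so that resistance and drug exposure cannot be told apart. The resistant libraries carry a vector title in the labels beside the name TF1-BAR, and any effect of a vector cannot be told apart from that of resistance either. Each line stands for a single selection history, and nothing given says that its replicates were separate selections, so p-values measure the spread between these libraries only.

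LINC symbols are placeholder names given to long noncoding RNA genes that lie between protein-coding genes and have no name of their own from a known function. Many such RNAs are spliced and polyadenylated like messenger RNAs, are expressed at low levels and in few cell types, and have no known role, while some act on neighbouring genes, bind proteins or other RNAs in trans, or serve as precursors of small RNAs. A few genes first listed as noncoding were later found to encode short proteins. In the annotation of the table, 709 members had the biotype lincRNA, 40 were antisense, 28 processed transcripts, 12 protein-coding and 9 transcribed unprocessed pseudogenes, and the rest belonged to 5 smaller classes.

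Promoters are shown for the 6 differentially expressed members among the 10 largest changes in either direction that the RefSeq promoter table held. Each run covers 250 bases before to 50 after the RefSeq start site, 5′ to 3′ on the strand of the gene, in the build GRCh38.p14. Capitals mark a match to a searched motif on either strand, so that TTATCT and TTATCA are AGATAA and TGATAA, the letters bound by GATA factors, read on the other strand, and ATTGG is CCAAT. The remaining motifs marked are TGTGGT, bound by RUNX factors, CACGTG, the E-box, and TATAAA, the TATA box. The first 4 runs belong to genes higher in TF1-BAR and the last 2 to genes lower in TF1-BAR.
LINC02404, chr12:91876878-91877177, plus strand: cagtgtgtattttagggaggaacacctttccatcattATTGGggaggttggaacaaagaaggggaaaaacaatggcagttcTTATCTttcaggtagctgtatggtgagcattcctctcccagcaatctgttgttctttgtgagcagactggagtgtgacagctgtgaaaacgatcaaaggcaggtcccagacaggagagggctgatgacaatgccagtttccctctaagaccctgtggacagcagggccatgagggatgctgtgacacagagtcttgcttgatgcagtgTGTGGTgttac
LINC02458, chr12:89019643-89019942, minus strand: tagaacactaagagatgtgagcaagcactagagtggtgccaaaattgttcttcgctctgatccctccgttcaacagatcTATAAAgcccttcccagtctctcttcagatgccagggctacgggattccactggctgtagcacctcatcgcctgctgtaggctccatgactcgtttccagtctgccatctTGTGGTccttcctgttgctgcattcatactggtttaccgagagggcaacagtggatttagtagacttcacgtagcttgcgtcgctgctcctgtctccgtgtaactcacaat
LINC01801, chr19:34832820-34833119, minus strand: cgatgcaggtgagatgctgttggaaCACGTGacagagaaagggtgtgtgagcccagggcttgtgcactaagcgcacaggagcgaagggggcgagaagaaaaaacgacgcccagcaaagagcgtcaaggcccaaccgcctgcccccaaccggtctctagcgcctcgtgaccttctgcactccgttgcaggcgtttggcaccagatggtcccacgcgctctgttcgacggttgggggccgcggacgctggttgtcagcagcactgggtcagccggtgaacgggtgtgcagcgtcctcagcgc
LINC02160, chr5:33229485-33229784, plus strand: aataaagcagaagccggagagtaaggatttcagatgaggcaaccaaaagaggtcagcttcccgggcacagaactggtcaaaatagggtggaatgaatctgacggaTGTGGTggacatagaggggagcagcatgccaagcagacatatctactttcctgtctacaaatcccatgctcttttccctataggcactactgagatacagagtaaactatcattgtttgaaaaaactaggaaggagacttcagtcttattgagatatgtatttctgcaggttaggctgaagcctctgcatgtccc
LINC02038, chr3:193843960-193844259, minus strand: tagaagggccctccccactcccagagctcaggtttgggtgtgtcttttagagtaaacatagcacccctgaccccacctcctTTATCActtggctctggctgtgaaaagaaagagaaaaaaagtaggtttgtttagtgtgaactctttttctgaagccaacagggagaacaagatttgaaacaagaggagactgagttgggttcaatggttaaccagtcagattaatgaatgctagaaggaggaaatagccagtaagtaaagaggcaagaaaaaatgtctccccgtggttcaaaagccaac
LINC01388, chr9:113746-114045, minus strand: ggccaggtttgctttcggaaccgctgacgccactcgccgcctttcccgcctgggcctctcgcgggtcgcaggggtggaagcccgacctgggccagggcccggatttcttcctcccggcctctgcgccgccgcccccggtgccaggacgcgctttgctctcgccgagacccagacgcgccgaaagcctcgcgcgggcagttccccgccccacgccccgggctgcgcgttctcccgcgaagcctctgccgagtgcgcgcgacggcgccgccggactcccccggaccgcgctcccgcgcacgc
The RefSeq start site lay 263 bases upstream of the start in the expression table for LINC02404 and within 41 bases for the other 5. The promoter of LINC01388 was the richest of the 6 in G and C, at 76.0%, against 48.7% in LINC02404, and it held none of the searched letters.

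Across the 82 tested members with a promoter in the RefSeq table, each searched motif was in a somewhat larger share than among all 35116 promoters of the same length, and no test was made of these shares. TGTGGT was in 14.6% of member promoters against 13.1% of all, AGATAA in 14.6% against 10.3%, TGATAA in 11.0% against 7.53% and CACGTG in 12.2% against 7.26%. TATAAA was in 12.2% against 11.5%, CCAAT in 39.0% against 34.6%, the STAT5 letters TTCNNNGAA in 9.76% against 7.66% and the ETS letters CCGGAAGT in 4.88% against 4.14%. Both strands were searched, and matches of different motifs could overlap. Of the 9 differentially expressed members with a promoter, 4 held the RUNX letters, 4 the CCAAT letters, 3 the first and 1 the second of the GATA motifs, 2 the E-box, 1 the TATA box, 1 the STAT5 letters and 0 the ETS letters. These are matches of letters, and no binding was measured.

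A further pair of sequences belongs to a member that hosts a microRNA. LINC00461 contains the hairpin MIR9-2 on its own strand, at chr5:88666853-88666939, which gives the mature miR-9 arms, well known from neural cells. The seeds, bases 2 to 8, are in capitals.
hsa-miR-9-5p: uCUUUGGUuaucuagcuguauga
hsa-miR-9-3p: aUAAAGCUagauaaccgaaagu
The mature RNAs were not measured by these libraries.

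Expression is given in FPKM, in which fragments are divided by gene length and library depth, and the whole fragments behind them were recovered from the values. The libraries held 18042299 and 15465497 fragments in TF1-BA and 15761642 and 16074303 in TF1-BAR. The 11 markers of the TF-1 line fixed for the check, among them GATA1, KIT and the GM-CSF receptor chains, were at 1 FPKM or more in all 4 libraries, with a summed FPKM of 370–377 in TF1-BA and 466–489 in TF1-BAR. Fibroblast and epithelial markers were all under 1 FPKM, and among the endothelial markers VWF was under 1 FPKM while PECAM1 was above. The summed FPKM of the T-cell markers was 19.2–20.8 in TF1-BA and 5.83–6.40 in TF1-BAR, nearly all of it CD3D, with CD2 and CD3E under 1 FPKM. The B-cell sum was 3.11–3.46 in TF1-BA and 4.13–4.46 in TF1-BAR, with CD79A as its gene above 1 FPKM. What part these shifts have in the results was not tested.

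Most long intergenic noncoding RNA genes were barely expressed in either line. Of the 810 members, 74 had no fragment in any library and 426 had at most 3 fragments in every library, the floor taken here for detection. A mean FPKM under 0.1 was found for 375 members with a fragment, 0.1 to under 0.5 for 181, 0.5 to under 1 for 69, 1 to under 5 for 90, 5 to under 20 for 16 and 20 or more for 5. The 180 members with a mean of at least 0.5 FPKM were tested, which is 22.2% of the members, against 47.5% of all genes and 69.5% of protein-coding genes. Other genes of biotype lincRNA passed in 21.1% of cases. The median mean FPKM of the tested members was 1.29, compared with 4.52 for all tested genes. The remaining 630 members were left untested.

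Together the members took a larger share of the TF1-BAR libraries. They held 19909 and 17225 fragments in TF1-BA and 24533 and 26331 in TF1-BAR, which is 0.11% and 0.111% of the TF1-BA libraries and 0.156% and 0.164% of the TF1-BAR libraries. The libraries of the lines did not overlap. A design of 2 libraries against 2 allows no exact two-sided permutation p under 0.333, so no test is given for this share. Leaving out the most abundant differentially expressed members, LINC01029 and LINC02160, the shares were 0.106%, 0.107%, 0.141% and 0.148%, and leaving out all differentially expressed members they were 0.101%, 0.102%, 0.127% and 0.132%. A difference in the same direction thus remained without the differentially expressed members. Members with any fragment numbered 541 and 572 in TF1-BAR against 505 and 490 in TF1-BA. Above the floor of 3 fragments they numbered 301 and 321 against 298 and 280. At 10 or more fragments they numbered 209 and 216 against 208 and 193. The libraries differ in depth, no such count is given over all genes, and these counts were not tested.

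Long intergenic noncoding RNA genes that differed between the lines were mostly higher in the resistant cells. Differential expression was defined as a log2 fold change of at least 1 in size on the scale of FPKM + 0.5 and a Benjamini-Hochberg adjusted p under 0.05 in limma over all 15519 tested genes. This held for 21 of the 180 tested members (11.7%), whereas 4.75% of all tested genes were called. Of these, 17 (9.44%) were higher in TF1-BAR, against 3.05% of all genes, and 4 (2.22%) were lower, against 1.69% of all genes. Some genes passed the filter on the mean only through the line where they are high. For them the filter fixed the direction of the difference but not a call. Members lay nearer the filter. A mean under 0.5 FPKM in 1 line was found for 21.1% of the tested members and 7.21% of all tested genes. Among the called members these were 7 of the 17 higher, LINC02404, LINC01801, LINC02301, LINC02055, LINC02141, LINC01021 and LINC01611, and LINC01388 of the 4 lower. Of the 142 members at 0.5 FPKM or more in both lines, 10 (7.04%) were higher and 3 (2.11%) lower, against 2.33% and 1.28% of all such genes. The split depended on the scaling, with 10 higher and 7 lower after quantile normalisation, where 359 of all genes were higher and 338 lower, and 29 higher and 13 lower in limma voom on recovered fragments, where 7.17% of all genes were called, 650 higher and 463 lower. It also depended on single libraries, with 6 higher and 0 lower without TF1-BA replicate 1, 3 and 0 without TF1-BA replicate 2, 18 and 7 without TF1-BAR replicate 1, and 8 and 5 without TF1-BAR replicate 2. The calls over all genes fell alike, to 0.928% without TF1-BA replicate 1, 0.271% without TF1-BA replicate 2 and 2.75% without TF1-BAR replicate 2, against 5.05% without TF1-BAR replicate 1, while the members called were 3.33%, 1.67%, 7.22% and 13.9%. All 17 members that were higher had the biotype lincRNA, and they came from 137 tested members of that biotype. Other genes of biotype lincRNA, without a LINC name and outside chromosomes 10 and 20, gave 42 higher and 6 lower of 567 tested.

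The shift was seen beyond the differentially expressed members. The median log2 fold change was 0.24 over the tested members, 0.066 over all tested genes, 0.037 over protein-coding genes and 0.26 over other genes of biotype lincRNA. Of the tested members, 122 had a log2 fold change above 0 and 58 below. After quantile normalisation the median was 0.11 over the members and −0.0038 over all genes, and under the other scalings the median of the members lay above that of all genes as well. At an adjusted p under 0.05 without a fold threshold, 42 members (23.3%, background 16.3%) were higher and 12 (6.67%, background 10.5%) were lower. The FPKM of the lines did not overlap for 123 members (68.3%), a share near the background of 69.3%, with 91 higher (50.6%, background 40.9%) and 32 lower (17.8%, background 28.4%). The replicates of a line correlated across the tested members with r = 0.95 in TF1-BA and 0.948 in TF1-BAR, and libraries of different lines with r of 0.791–0.806. These correlations are across genes, which are not independent replicates.

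**Figure D1:**
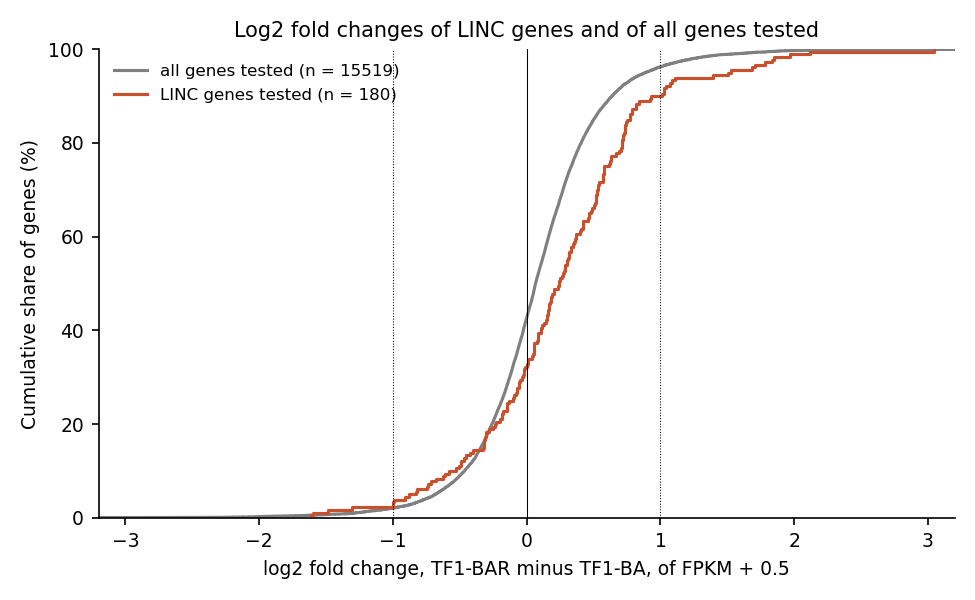
Cumulative share of genes (y axis, %) by log2 fold change between the lines (x axis, TF1-BAR minus TF1-BA, on the scale of FPKM + 0.5), for 180 tested LINC genes in red and all 15519 tested genes in grey. The red curve lies to the right of the grey one over most of its length, with medians of 0.24 and 0.066, and dotted lines mark log2 fold changes of 1 in size.

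The largest change was that of LINC02404, a gene of chromosome 12 at 91877391 to 91880655 on the plus strand, with no function known here. It measured 0.233 and 0.381 FPKM in TF1-BA, from 5 and 7 fragments, and 5.77 and 6.49 FPKM in TF1-BAR, from 108 and 124 fragments. LINC02404 was thus close to the floor of 3 fragments in both TF1-BA libraries and far above it in both TF1-BAR libraries. The log2 fold change was 3.04 (SE 0.146, adjusted p = 0.00213). This gene and BTG1, an antiproliferative gene 260 kb away, were neighbours, and BTG1 measured 6.15 and 6.43 FPKM in TF1-BA and 8.16 and 7.50 in TF1-BAR (log2 fold change 0.29, adjusted p = 0.0589). Another lincRNA gene 197 kb away on the same strand, AC025254.1, had 1 and 1 fragments in TF1-BA and 34 and 30 in TF1-BAR, a 33.7-fold ratio of pooled fragments with an exact 95% counting interval of 8.95 to 284. Intervals of this kind cover counting error only.

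The most abundant changed members were LINC02160 and LINC01029. LINC02160, at 33229735 to 33255553 on the plus strand of chromosome 5, measured 20.8 and 22.0 FPKM in TF1-BA and 68.5 and 71.5 FPKM in TF1-BAR. The log2 fold change of LINC02160 was 1.69 (SE 0.0655, adjusted p = 0.00145), and in the resistant cells it had the highest level of all members. LINC01029, at 77971294 to 77993722 on the minus strand of chromosome 18, measured 14.0 and 13.9 FPKM in TF1-BA and 53.0 and 59.2 FPKM in TF1-BAR. LINC01029 had a log2 fold change of 1.97 (SE 0.0778, adjusted p = 0.00145). Both rose well beyond the spread between replicates. Together they took 3.63% of the member fragments in either TF1-BA library and 9.41% and 9.82% in the TF1-BAR libraries. Both loci hold a further lincRNA gene whose values cannot be fully separated. The same-strand gene AC134978.1 lies inside LINC01029 and had a log2 fold change of 2.11 (adjusted p = 0.00384), and AC010343.3 lies across LINC02160 on the other strand with a log2 fold change of 1.14 (adjusted p = 0.0207), in libraries prepared with a kit that does not keep strand. LINC02404, LINC01029 and LINC02160 were the members called under each of the 19 alternatives tried.

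Chromosome 12 held a second strongly raised member, LINC02458, 2858 kb from LINC02404. LINC02458, at 89010681 to 89019679 on the minus strand, lies between DUSP6, a phosphatase of the MAP kinase pathway, and KITLG, the ligand of the receptor KIT. It measured 1.28 and 0.857 FPKM in TF1-BA and 6.95 and 5.63 FPKM in TF1-BAR, from 68, 39, 322 and 266 fragments. The lines did not overlap, and the log2 fold change was 2.12 (SE 0.179, adjusted p = 0.00534). DUSP6 measured 9.67 and 10.1 FPKM in TF1-BA and 12.9 and 11.2 in TF1-BAR (adjusted p = 0.0879), and KITLG was at 0.0643 FPKM or less in every library.

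LINC01801 on chromosome 19 and LINC01694 on chromosome 21 are shown because other genes within 500 kb were higher in TF1-BAR in larger numbers than around the other called members, 4 of 35 tested around LINC01801 and 3 of 11 around LINC01694. They were chosen for these counts. Over the 21 windows of called members, 139 other genes were tested, of which 16 (11.5%) were higher and 1 (0.719%) lower. The shares over all tested genes were 3.05% and 1.69%, and no test was made of this difference. In 11 windows there was no called gene. AC134978.1, AC010343.3 and AC008555.1, which are in the tally, overlap the called member itself, and the libraries do not keep strand. Of the 17 called genes, 9 had a mean under 0.5 FPKM in 1 line, so that the filter fixed the direction of their difference. Among these were 3 of the 4 around LINC01801 and PCBP3 of the 3 around LINC01694. LINC01801, at 34788582 to 34832869 on the minus strand, measured 0.514 and 0.228 FPKM in TF1-BA and 2.49 and 2.69 FPKM in TF1-BAR (log2 fold change 1.85, SE 0.205, adjusted p = 0.00783). 3 lincRNA genes inside or beside it were also differentially expressed, AC008555.1, which lies inside it on the same strand, by 1.46, AC008555.2, 5.02 kb away, by 1.07, and AC008555.5, 16.4 kb away, by 1.64 on the log2 scale. The values of LINC01801 and AC008555.1 may not be fully separable. The same holds for AC008555.2 and AC008555.5, which overlap each other on opposite strands. AC008555.1 and AC008555.2 passed the filter only through TF1-BAR, as did SNORD111, the fourth called gene of the window, with 0 and 0 fragments in TF1-BA and 4 and 1 in TF1-BAR. The zinc finger genes on either side did not reach the fold threshold, with log2 fold changes of 0.24 for ZNF599 (adjusted p = 0.134) and 0.58 for ZNF30 (adjusted p = 0.0247). LINC01694, at 45593654 to 45603056 on the plus strand, measured 0.814 and 0.855 FPKM in TF1-BA and 3.61 and 4.64 FPKM in TF1-BAR (log2 fold change 1.78, SE 0.147, adjusted p = 0.00516). Its next protein-coding gene on the same strand, PCBP3, which encodes a poly(C)-binding protein, was 40.6 kb away and rose by 1.10 (adjusted p = 0.0143). Beyond PCBP3 lie COL6A1 and COL6A2, the genes of collagen VI chains, which rose by 1.60 (adjusted p = 0.00424) and 1.53 (adjusted p = 0.00409). SLC19A1, the folate carrier gene on the other side, had a log2 fold change of 0.36 (adjusted p = 0.0248) and was not differentially expressed.

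The remaining members among the 10 largest increases were expressed at low levels. LINC00648 (chromosome 14, 47764954 to 47795092) measured 0.583 and 0.489 FPKM in TF1-BA and 3.11 and 3.29 FPKM in TF1-BAR, with a log2 fold change of 1.84 (SE 0.128, adjusted p = 0.00409). LINC01480 (chromosome 19, 41535183 to 41536904) measured 0.772 and 1.28 FPKM in TF1-BA and 3.06 and 3.87 in TF1-BAR, with a log2 fold change of 1.39 (SE 0.208, adjusted p = 0.0131). LINC02055 (chromosome 8, 136530798 to 136984935) measured 0.369 and 0.215 FPKM in TF1-BA and 1.64 and 1.84 in TF1-BAR, with a log2 fold change of 1.51 (SE 0.184, adjusted p = 0.00923). For none of these 3 did the libraries of the lines overlap. LINC02301 (chromosome 14, 82642620 to 82706825) rested on the fewest fragments of the 10, 1 and 1 in TF1-BA and 17 and 21 in TF1-BAR, and its log2 fold change was 1.71 (SE 0.199, adjusted p = 0.00872). It overlaps the pseudogene ENSAP2 on the other strand, which had 33, 27, 27 and 28 fragments and did not change with it (log2 fold change −0.044). The exact 95% counting interval of the ratio of pooled fragments of LINC02301 was 5.17-fold to 171-fold.

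A further 7 members were higher in TF1-BAR with log2 fold changes of at most 1.11, and they are named here after their values were seen. They were LINC02141 (1.11), LINC01021 (1.09), LINC01215 (1.07), LINC01611 (1.04), LINC02241 (1.02), LINC00342 (1.02) and LINC00909, which measured 1.85 and 1.49 FPKM in TF1-BA and 3.29 and 4.52 in TF1-BAR. LINC01021 is the gene also called PURPL, known as a target of p53, and measured 0.357 and 0.27 FPKM in TF1-BA and 1.44 and 1.04 in TF1-BAR. LINC00342 was the most abundant of the 7, at 4.04 and 4.69 FPKM in TF1-BA and 9.45 and 9.29 in TF1-BAR. LINC01215 lies between CD47, the gene of a surface protein that inhibits phagocytosis, and IFT57, and neither neighbour reached the fold threshold, with log2 fold changes of 0.32 for CD47 (adjusted p = 0.0301) and −0.22 for IFT57 (adjusted p = 0.171). LINC00909 overlaps ZNF407 on the other strand, which had a log2 fold change of −0.056. These 7 lay close to the fold threshold, and each lost its call under 4 to 8 of the alternatives.

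The 4 members that were lower in TF1-BAR were LINC01317, LINC01388, LINC01835 and LINC02038. LINC01317, at 33706886 to 34297753 on the plus strand of chromosome 2, measured 3.66 and 3.80 FPKM in TF1-BA and 1.05 and 0.743 FPKM in TF1-BAR, a log2 fold change of −1.61 (SE 0.146, adjusted p = 0.00581). LINC02038, at 193842560 to 193844024 on the minus strand of chromosome 3, measured 4.06 and 4.01 FPKM in TF1-BA and 1.16 and 1.52 FPKM in TF1-BAR, a log2 fold change of −1.31 (SE 0.132, adjusted p = 0.00675). LINC01835, annotated as a transcribed pseudogene on chromosome 19 (15851993 to 15864904), measured 3.94 and 3.09 FPKM in TF1-BA and 0.82 and 1.04 FPKM in TF1-BAR, a log2 fold change of −1.48 (SE 0.161, adjusted p = 0.00766). The levels of these 3 in TF1-BA were thus similar to one another and the lines did not overlap. LINC01835 lies among cytochrome P450 genes of the CYP4F family, whose sequences are alike, so that its fragments could be shared between copies, and CYP4F11, 47.5 kb away on the same strand, was higher in TF1-BAR (log2 fold change 1.03, adjusted p = 0.01). LINC01388 (chromosome 9, 112713 to 113754) had 9 and 8 fragments in TF1-BA and 0 and 1 in TF1-BAR, a log2 fold change of −1.59 (SE 0.228, adjusted p = 0.0123), and it was the only differentially expressed member with fewer than 10 fragments in every library. The pooled fragments of LINC01388 were 16.2-fold lower, with an exact 95% counting interval of 2.53 to 675. The 4 were no longer called without TF1-BA replicate 1, without TF1-BA replicate 2 or with no filter on low values.

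LINC02038 lies between genes of known function, OPA1, which drives fusion of the inner mitochondrial membrane, and HES1, a transcriptional repressor downstream of Notch. OPA1 measured 84.9 and 78.8 FPKM in TF1-BA and 71.5 and 62.5 in TF1-BAR (log2 fold change −0.29, adjusted p = 0.0691), and HES1 49.3 and 42.6 in TF1-BA and 36.4 and 37.8 in TF1-BAR (log2 fold change −0.30, adjusted p = 0.0644). Both were lower in the TF1-BAR libraries, without passing the adjusted p in limma. In voom on recovered fragments, 4 of the 5 tested neighbours of the members called lower passed it.

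**Figure D2:**
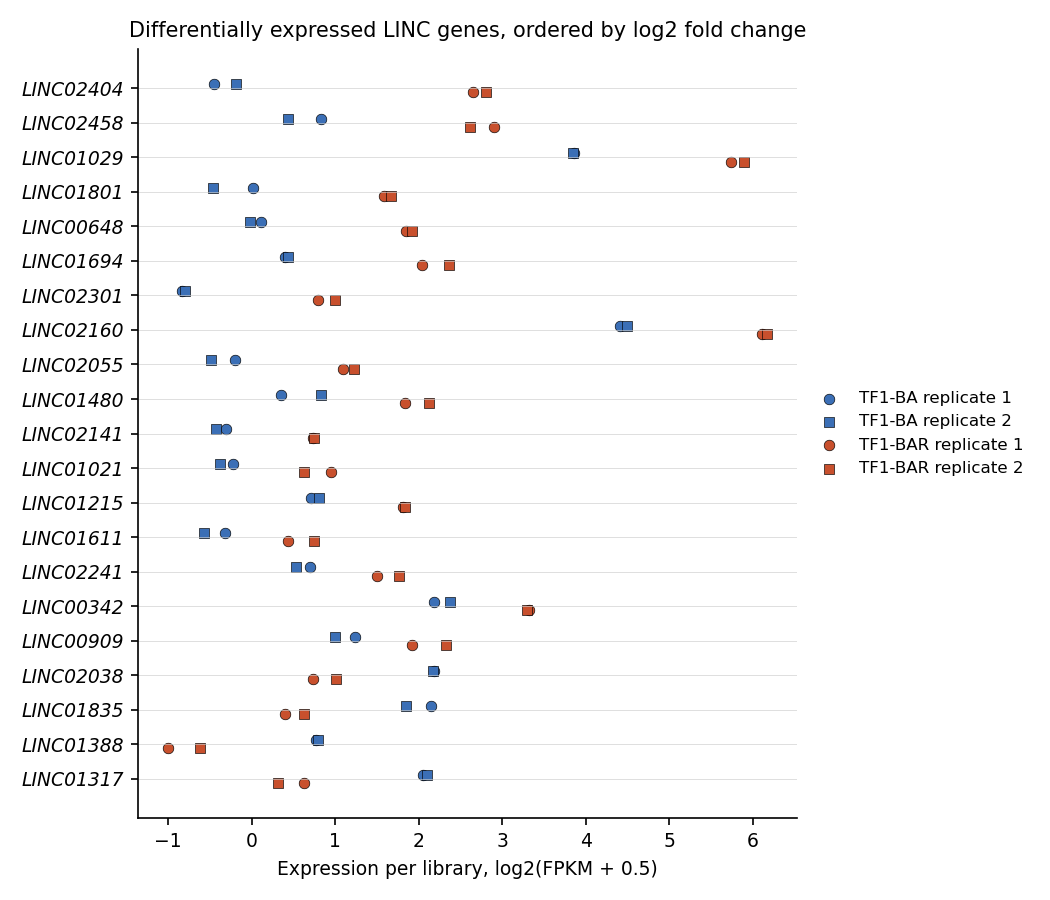
Expression of the 21 differentially expressed LINC genes in each library (x axis, log2 of FPKM + 0.5), ordered by log2 fold change from LINC02404 at 3.04 to LINC01317 at −1.61. Blue points are TF1-BA and red points TF1-BAR, circles replicate 1 and squares replicate 2, and the colours do not overlap in any gene.

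In mean level over the libraries, LINC02160 and LINC01029 were followed by LINC00205, LINC00106, LINC00888, LINC00998, LINC00534 and LINC02285, none of which reached the fold threshold. LINC00205 (chromosome 21) measured 32.7 and 32.6 FPKM in TF1-BA and 36.2 and 33.1 FPKM in TF1-BAR (log2 fold change 0.081, SE 0.071, adjusted p = 0.428). It was the most abundant member in the sensitive cells, and a difference between the lines was not detected. LINC00106 (chromosome X) measured 18.5 and 22.5 FPKM in TF1-BA and 32.8 and 30.9 in TF1-BAR (log2 fold change 0.63, adjusted p = 0.019). LINC00888 (chromosome 3) measured 15.6 and 18.4 FPKM in TF1-BA and 28.3 and 27.1 in TF1-BAR (log2 fold change 0.69, adjusted p = 0.0115). LINC00534 (chromosome 8) measured 8.15 and 9.22 FPKM in TF1-BA and 12.6 and 16.8 in TF1-BAR (log2 fold change 0.71, adjusted p = 0.03). LINC00106, LINC00888 and LINC00534 passed the adjusted p but not the fold threshold, and so did LINC02285 on chromosome 14 with a log2 fold change of 0.52 (adjusted p = 0.0398). The pass of LINC02285 was lost with the replicate block (adjusted p = 0.0606), without the trend in eBayes (0.0687), with the filter at 0.1 FPKM (0.0674) or none (0.174), with the trend on GC content, length and level removed (0.0524) and without any single library (0.0788 to 0.179). That of LINC00534 was lost without the trend in eBayes (adjusted p = 0.0555) and with the filter at 0.1 FPKM (0.0549). With no filter on low values, LINC00106 (adjusted p = 0.115), LINC00888 (0.0799) and LINC00534 (0.161) lost the pass. Without TF1-BA replicate 1, TF1-BA replicate 2 or TF1-BAR replicate 2, LINC00106, LINC00888 and LINC00534 all lost it, with adjusted p from 0.06 to 0.16, and LINC00106 also without TF1-BAR replicate 1 (0.0718). LINC00205 and LINC01029 were next to each other in mean level over the 4 libraries, at 33.6 and 35.0 FPKM, with LINC00205 ahead in TF1-BA and LINC01029 ahead in TF1-BAR. The neighbours of LINC00106, both on the other strand, had log2 fold changes of 0.34 for SLC25A6 at 3.70 kb (adjusted p = 0.0244) and −0.61 for ASMTL at 3.74 kb (adjusted p = 0.00809), under the fold threshold.

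Members known to encode small proteins were expressed in both lines. LINC00998, now known as SMIM30, encodes a small membrane protein, and measured 16.9 and 16.4 FPKM in TF1-BA and 11.6 and 9.58 FPKM in TF1-BAR. Its log2 fold change was −0.63 (SE 0.108, adjusted p = 0.0188), under the fold threshold, with all TF1-BAR libraries below those of TF1-BA. With the trend on GC content, length and level removed it was −0.39 (adjusted p = 0.0553), which no longer passed the adjusted p. The pass was also lost without a filter on low values (adjusted p = 0.109) and without TF1-BA replicate 1 (0.122), TF1-BA replicate 2 (0.112) or TF1-BAR replicate 2 (0.05). LINC00116, which encodes the mitochondrial microprotein mitoregulin, measured 2.51 and 3.47 FPKM in TF1-BA and 2.54 and 3.06 FPKM in TF1-BAR, so that the lines overlapped (log2 fold change −0.072, adjusted p = 0.782). Of the 4 genes on this list, 2 were in the table and tested, 0 were differentially expressed in limma (background 4.75%) or in voom on recovered fragments (background 7.17%), and 1 had an unadjusted p under 0.05 (background 42.2%) and passed the adjusted p in the downward direction.

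Hosts of other RNAs were represented by LINC00461 and LINC00632. LINC00461, the host of MIR9-2 whose mature arms are printed above, measured 1.02 and 0.932 FPKM in TF1-BA and 2.22 and 2.06 FPKM in TF1-BAR. The libraries did not overlap, and the log2 fold change was 0.84 (SE 0.125, adjusted p = 0.0132), under the fold threshold, although voom on recovered fragments called it. With no filter on low values, LINC00461 no longer passed the adjusted p in limma (0.0643). Leaving out each library in turn gave log2 fold changes of 0.79 to 0.88. MEF2C, a transcription factor gene 26.1 kb away, measured 16.1 and 15.3 FPKM in TF1-BA and 17.7 and 15.7 in TF1-BAR (adjusted p = 0.482). LINC00632, from which the circular RNA CDR1as is made, had 1, 3, 0 and 0 fragments and could not be compared at this depth. The circular form was not measured.

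Of 5 members best known from lymphoid or granulocytic cells, 2 were tested and neither was differentially expressed (background 4.75%) or had an unadjusted p under 0.05 in limma (background 42.2%), and voom called 0 (background 7.17%). LINC00173, described in granulocytes, measured 7.97 and 10.4 FPKM in TF1-BA and 8.02 and 7.92 FPKM in TF1-BAR (log2 fold change −0.18, adjusted p = 0.358), and LINC00926, described in B cells, 1.75 and 1.82 FPKM in TF1-BA and 1.97 and 2.07 in TF1-BAR (log2 fold change 0.14, adjusted p = 0.368). LINC00861, LINC00892 and LINC00299 were listed with at most 15 fragments in any library.

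Of 14 genes often studied in tumours, 10 were in the table under these names and 5 were tested, with 0 differentially expressed in limma, 3 at an unadjusted p under 0.05 (background 42.2%), 2 called in voom (background 7.17%) and a median log2 fold change of 0.29. LINC00665 measured 5.73 and 5.91 FPKM in TF1-BA and 8.43 and 9.43 FPKM in TF1-BAR and was the one that passed the adjusted p (log2 fold change 0.58, adjusted p = 0.0139), which it did not without TF1-BA replicate 1 (0.111), TF1-BA replicate 2 (0.103) or TF1-BAR replicate 2 (0.0593). LINC00520 measured 1.31 and 1.47 FPKM in TF1-BA and 0.541 and 0.834 in TF1-BAR, without overlap, and missed the threshold (log2 fold change −0.68, adjusted p = 0.0542). LINC01133 had a log2 fold change of 0.72 (adjusted p = 0.0878). These were the 2 called in voom on recovered fragments, LINC00520 with a log2 fold change of −1.10 (adjusted p = 0.00709) and LINC01133 with one of 1.40 (adjusted p = 0.0104). LINC00963 had a log2 fold change of 0.29 (adjusted p = 0.147) and LINC00467 of −0.15 (adjusted p = 0.41). LINC00460, below the filter, had 7 and 6 fragments in TF1-BA and 0 and 2 in TF1-BAR, and LINC00346 had 5 and 5 against 0 and 2. LINC00511, LINC00958 and LINC00899 had at most 7 fragments in any library.

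**Figure D3:**
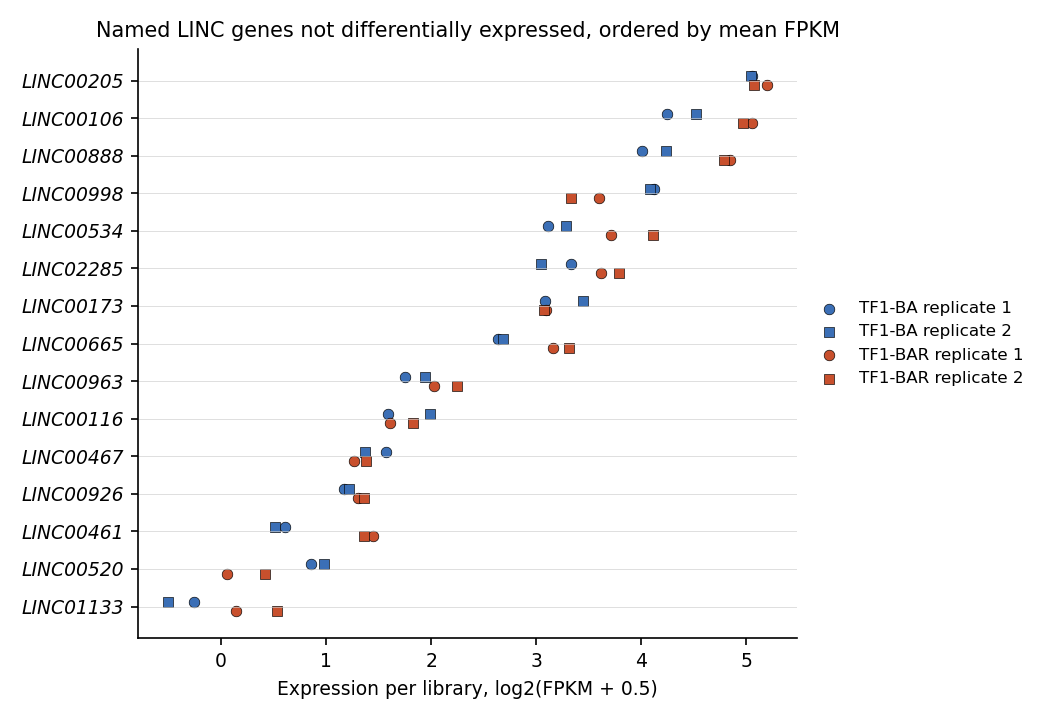
Expression of the 15 named LINC genes that were tested and not differentially expressed, in each library (x axis, log2 of FPKM + 0.5), ordered by mean FPKM from LINC00205 to LINC01133. Blue points are TF1-BA and red points TF1-BAR, circles replicate 1 and squares replicate 2, and the lines overlap in LINC00116, LINC00467 and LINC00173.

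Members below the filter were examined by fragments alone. With at most 3 fragments in both libraries of a line and more than 3 in both of the other, 21 of the 630 untested members (3.33%) were higher in TF1-BAR and 9 (1.43%) lower, against 2.48% and 1.25% of all untested genes. The 21 had at most 15 fragments in any TF1-BAR library, so that these are differences between few fragments and were not tested. Among the 9 lower members the clearest, chosen after its values were seen, was LINC01419 on chromosome 8, with 12 and 13 fragments in TF1-BA and 0 and 0 in TF1-BAR. It was at least 3.96-fold lower when the floor of 3 fragments is taken for each TF1-BAR library.

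The differentially expressed members lay on 12 chromosomes of the 21 with a tested member, and the median log2 fold change was above 0 on 19 of these for the tested members and on 19 for all tested genes, and on 17 for both. Chromosomes 5 and 19 held 3 each, and chromosomes 2, 3, 12, 14 and 18 held 2 each. The median GC content was 41.8% for the 17 higher in TF1-BAR, 51.4% for the 3 of the 4 lower ones with a value, 46.6% for the tested members and 47.6% for all tested genes. With the trend of the fold change on GC content, length and level removed, 17 were higher and 5 lower.

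Some protein-coding neighbours of the members reached the fold threshold, and more passed the adjusted p alone. The 38 named members had 76 nearest protein-coding neighbours, 50 of them tested, of which 2 were higher and 2 lower in TF1-BAR. Together these were 8.0% of the tested neighbours, against 3.7% of tested protein-coding genes and 4.75% of all tested genes. PCBP3 and TEAD1 had a mean under 0.5 FPKM in TF1-BA and passed the filter only through TF1-BAR. Among the 47 neighbours at 0.5 FPKM or more in both lines, 2 were called (4.26%), compared with 3.02% of such protein-coding genes and 3.6% of all such genes. The higher ones were PCBP3 and TEAD1, beside LINC00958 (log2 fold change 1.13, adjusted p = 0.0231), and the lower ones SEL1L and SLC39A11, 5.48 kb from LINC00511 (log2 fold change −1.18, adjusted p = 0.0036). LINC00958 and LINC00511 themselves were below the filter. Without the fold threshold, 22 of the 50 passed the adjusted p (44%), 16 of them higher and 6 lower, against 26.9% of all genes and 29.1% of protein-coding genes. The median log2 fold change of the tested neighbours was 0.17, compared with 0.066 for all genes and 0.037 for protein-coding genes, and no test was made of these differences. For the 17 members that were higher, including the 7 outside the naming rule, 20 of 35 neighbours were tested, with PCBP3 higher and CDH12 and SEL1L lower. Over all tested protein-coding genes 3.7% were called. CDH12, at 2.22 and 2.51 FPKM in TF1-BA and 0.15 and 0.273 FPKM in TF1-BAR, passed the filter only through TF1-BA, and PCBP3 only through TF1-BAR. Of the 18 at 0.5 FPKM or more in both lines, 1 was called (5.56%), against 3.02% of such protein-coding genes and 3.6% of all such genes. For the 4 that were lower, 5 of 8 neighbours were tested and 0 were called at the fold threshold in limma or voom. At an unadjusted p under 0.05 there were 4, against 42.2% of all genes, and in voom 4 passed the adjusted p, against 37.8% of all genes. FAM98A beside LINC01317 had an adjusted p of 0.0087 with a log2 fold change of −0.54, and CRIM1 on its other side one of 0.0197 with 0.57.

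CDH12 and SEL1L were lower beside members that were higher. CDH12, a cadherin gene 813 kb from LINC02241, measured 2.22 and 2.51 FPKM in TF1-BA and 0.15 and 0.273 FPKM in TF1-BAR (log2 fold change −2.01, adjusted p = 0.00561). LINC02241 itself measured 1.12 and 0.94 FPKM in TF1-BA and 2.34 and 2.91 FPKM in TF1-BAR. On the other side of LINC02241, CDH18 was under the filter at 0.914 and 0.493 FPKM in TF1-BA and 0.0131 and 0.0513 in TF1-BAR. The cadherin genes on both sides were thus lower in the TF1-BAR libraries while the LINC gene between them was higher. SEL1L, a component of endoplasmic reticulum-associated degradation 1110 kb from LINC02301, measured 70.3 and 95.9 FPKM in TF1-BA and 37.9 and 32.4 in TF1-BAR (log2 fold change −1.22, adjusted p = 0.0115).

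**Figure D4:**
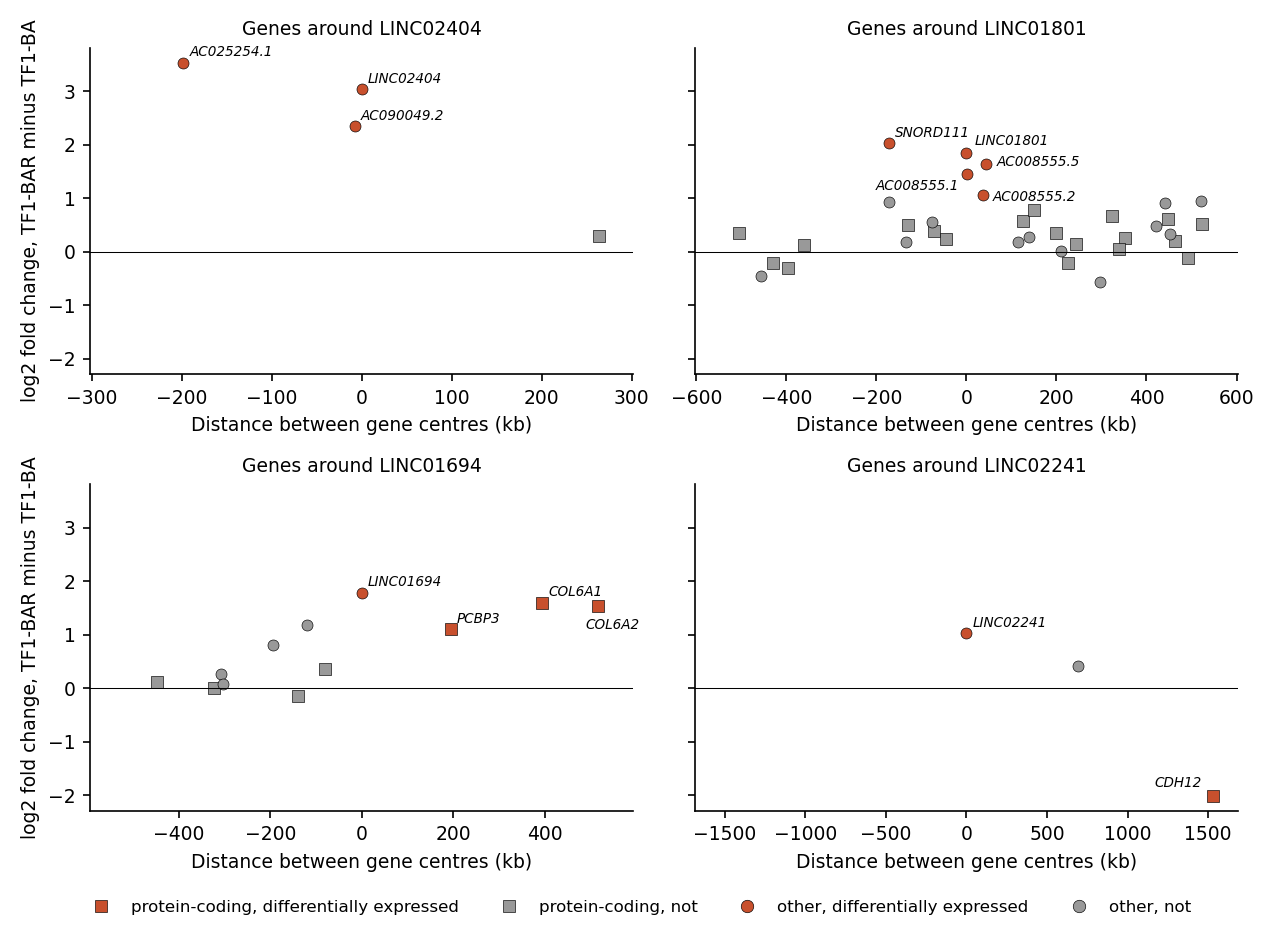
Log2 fold change (y axis, TF1-BAR minus TF1-BA) of the tested genes around 4 LINC genes, against the distance between gene centres in kb (x axis), within 500 kb of the gene or 900 kb for LINC02241. Squares are protein-coding and circles other genes, red where differentially expressed, and AC025254.1 stands at 3.54, COL6A1 at 1.60 and CDH12 at −2.01.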

How the data were processed

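Total RNA of 2 libraries of TF1-BA and 2 of TF1-BAR cells was extracted with TRIzol and prepared with the NEBNext Ultra RNA kit, per the labels, a kit that does not keep strand. The submitters' processing notes name TopHat2 2.0.13, Cufflinks 2.2.0, Cuffdiff 2.2.0 and the build GRCh38, and the annotation release is not given in the sources used here. The values the authors deposited are FPKM for 32673 genes, without log transformation.

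Members and gene lists were chosen with earlier results of these data known. By the rule for naming, the genes described are the 10 differentially expressed members changed most in either direction without overlap of libraries, the 8 with the highest mean FPKM, and the measured members of lists of small-protein genes, RNA hosts, lymphoid or granulocytic genes and tumour genes. Expression was compared on log2(FPKM + 0.5) with limma 3.58.1 in R 4.3.3 (lmFit, eBayes with trend, 2 residual degrees of freedom), over the 15519 genes whose FPKM averaged 0.5 or more, with Benjamini-Hochberg adjustment, and the thresholds of the study were kept. A pseudocount of 0.5 understates the change of low genes. The deposited FPKM were tested on the log scale, with voom on recovered fragments as an alternative.

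Whole fragments were recovered by finding the size of each library and the length of each gene that turn its 4 values into whole numbers, within 0.002. All but 1 of 30853 genes above 0 became whole, 14306 at the exon length of GENCODE 44 and 16546 at the smallest fitting length, while 1 of 300 did with wrong library sizes. Of 5037 genes with 20 or more fragments that were whole at the GENCODE 44 length, the smallest fitting length was that length in 94.3%. Fragments at fitted lengths are the smallest whole numbers and not certain, and genes with fewer fragments were not part of this comparison. Of the members, 792 are in GENCODE 44 by identifier. Promoters and miRNAs were taken from RefSeq tables, in which 82 of the 180 tested members had a promoter. The chi-square per degree of freedom between replicates was 2.79 and 4.43, so the libraries of a line differed by more than sampling noise. Alternatives were other pseudocounts, filters, scalings and variance models, voom, the replicate block, and leaving out each library. Removing the trend on GC content, length and level with splines of 4 degrees of freedom, with or without the block, was added after seeing the data.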

Additional observations from a re-analysis of the deposited data

How the results depend on the processing

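Numbers are given in the order of members higher in TF1-BAR, members lower and called neighbours of named members, against 17, 4 and 4 in the comparison as reported. A pseudocount of 1 FPKM gave 10, 4 and 2, and one of 0.1 FPKM gave 25, 9 and 5. Rescaling to TPM gave 26, 8 and 5, quantile normalisation 10, 7 and 2, and voom on recovered fragments 29, 13 and 5. With no filter on low values, where 810 members were tested, 8, 0 and 1 were left, and without the fold threshold there were 42, 12 and 22. The calls over all genes moved as well, from 737 to 487 and 1016 with the pseudocounts, 1048 in TPM, 697 after quantile normalisation, 1113 in voom and 314 with no filter. Leaving out 1 library in turn gave 3 to 18 higher, 0 to 7 lower and 0 to 2 neighbours, with a lone library assumed to vary like the others. The causes of these shifts were not tested. The remaining alternatives kept all 3 numbers within 1.5 times.

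With the replicate block there were 17 higher, 4 lower and 4 neighbours, with 20 of the 21 members shared. Deviations of same-numbered libraries correlated with r = 0.0646 across all tested genes and 0.132 across the members, and nothing given ties the numbers to a shared day or culture. With the block and the trend on GC content, length and level removed, 18 and 5 were called.

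Of the comparisons of named genes with an alternative, 466 kept their direction and their side of an adjusted p of 0.05, 70 became weaker and 7 stronger. With the fold threshold as well, 31 of 545 lost the call and 5 gained it. The log2 fold change of LINC00116 changed sign, ranging from −0.27 without TF1-BA replicate 1 to 0.13 without TF1-BA replicate 2, with 0.043 without TF1-BAR replicate 1. The planned count test with edgeR was not run, and voom is the test on recovered fragments given here. Of the 630 untested members, 425 had at most 3 fragments in every library, a depth at which differences could not be detected.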
